A study of Mus musculus with 4 samples.

Results

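The genes described here are the Notch and segmentation clock genes of the mouse caudal embryo. They were 10 of the 31055 genes in the tables and were chosen by symbol from a list of names. No measured value entered that rule, but earlier results of these data were known when the genes were chosen. They were the ligands *Dll1* and *Dll3*, the glycosyltransferase *Lfng*, the receptors *Notch1* and *Notch2* and the feedback inhibitor *Nrarp*. The others were the repressors *Hes7* and *Hes5* and the segment boundary genes *Mesp2* and *Ripply2*. Each symbol matched 1 gene. The data were single-cell RNA sequencing (scRNA-seq) counts from the caudal part of mouse embryos at E8.5, collected from intercrosses of *Grhl3*+/- mice; GRHL3 is a transcription factor needed for neural tube closure. Cells of 5 wild-type (WT) embryos formed 1 pool, cells of 3 *Grhl3*-null embryos, which lack the gene in every cell, formed the other, and 2 droplet libraries were made from each pool. The p-values below therefore compare 2 pools of cells and carry no spread between embryos. The labels name no treatment.

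Notch signaling passes between touching cells. Delta ligands on one cell bind a Notch receptor on its neighbour, the receptor is cut, and its intracellular part joins the DNA-binding protein RBPJ to switch on target genes, among them the *Hes* repressors and *Nrarp*. In the unsegmented (presomitic) mesoderm of the tail end, *Hes7* and *Lfng* are switched on and off in cycles, which is known as the segmentation clock, and at the front of that tissue *Mesp2* and *Ripply2* mark where the next somite boundary forms. In the neural plate *Hes5* is known as a Notch target that keeps progenitors from differentiating.

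The start regions of the 4 Notch target or clock genes with a motif match are shown, since of the 10 genes these alone held a match. They come from RefSeq on GRCm38.p6, the assembly called mm10, and each holds 250 bases before and 50 bases from the annotated start site, on the gene's own strand. All 10 genes matched an entry, and *Dll1* had 2. Capitals mark the letters TGGGAA, the core of the site that RBPJ is known to bind, read on either strand (TTCCCA where it lies on the other strand), and CACGTG, an E-box of the kind bound by basic helix-loop-helix proteins.
*Lfng*, chr5:140607091-140607390, plus strand: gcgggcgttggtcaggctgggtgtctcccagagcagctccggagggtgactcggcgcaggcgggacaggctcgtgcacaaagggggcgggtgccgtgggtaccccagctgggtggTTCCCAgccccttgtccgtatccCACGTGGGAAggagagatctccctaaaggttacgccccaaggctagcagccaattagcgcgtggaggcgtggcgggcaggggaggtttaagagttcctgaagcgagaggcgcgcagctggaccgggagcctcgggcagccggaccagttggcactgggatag
*Hes7*, chr11:69120203-69120502, plus strand: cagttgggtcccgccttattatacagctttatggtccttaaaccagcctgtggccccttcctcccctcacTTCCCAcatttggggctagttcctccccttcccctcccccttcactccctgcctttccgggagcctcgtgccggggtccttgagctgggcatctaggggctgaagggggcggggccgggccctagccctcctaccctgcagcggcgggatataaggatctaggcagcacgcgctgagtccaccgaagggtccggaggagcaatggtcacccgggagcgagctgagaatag
*Hes5*, chr4:154960673-154960972, plus strand: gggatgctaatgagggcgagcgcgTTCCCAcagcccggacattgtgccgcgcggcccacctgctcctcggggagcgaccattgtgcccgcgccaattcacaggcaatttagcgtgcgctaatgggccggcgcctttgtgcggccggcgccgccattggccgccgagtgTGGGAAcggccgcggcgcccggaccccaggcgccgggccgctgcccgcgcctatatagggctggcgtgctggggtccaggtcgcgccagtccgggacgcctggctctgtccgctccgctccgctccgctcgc
*Nrarp*, chr2:25180508-25180807, plus strand: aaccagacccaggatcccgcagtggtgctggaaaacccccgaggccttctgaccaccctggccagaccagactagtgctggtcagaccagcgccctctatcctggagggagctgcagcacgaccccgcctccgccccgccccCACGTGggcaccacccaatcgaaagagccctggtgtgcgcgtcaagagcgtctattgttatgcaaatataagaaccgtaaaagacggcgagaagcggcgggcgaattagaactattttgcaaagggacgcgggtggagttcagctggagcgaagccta

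The *Lfng* region held TGGGAA 135 bases before the start on the minus strand and 108 bases before it on the plus strand. The second of these overlaps CACGTG, which begins 112 bases before the start, and is part of the longer CGTGGGAA. *Hes5* held TGGGAA 226 bases before the start on the minus strand and 82 bases before it on the plus strand. *Hes7* held it 180 bases before the start on the minus strand. *Nrarp* held only CACGTG, 108 bases before the start. The windows of *Dll1*, *Dll3*, *Notch1*, *Notch2*, *Mesp2* and *Ripply2* held neither. Of 32851 promoter windows of the same length, 25.6% held TGGGAA, 0.734% held CGTGGGAA and 7.15% held CACGTG on either strand, so a match to the short core is common and describes letters, not binding.

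In mm10 coordinates with GENCODE vM21 gene models, *Dll1* (ENSMUSG00000014773) lies on chromosome 17 at 15367354 to 15376872 on the minus strand. *Dll3* (ENSMUSG00000003436) lies on chromosome 7 at 28293553 to 28302238, minus strand. *Mesp2* (ENSMUSG00000030543) is on the same chromosome at 79810727 to 79813439, plus strand. *Lfng* (ENSMUSG00000029570) lies on chromosome 5 at 140607320 to 140615545, plus strand. *Notch1* (ENSMUSG00000026923) lies on chromosome 2 at 26457903 to 26516663, minus strand, and *Nrarp* (ENSMUSG00000078202) on the same chromosome at 25180758 to 25183339, plus strand. *Notch2* (ENSMUSG00000027878) lies on chromosome 3 at 98013527 to 98150361, plus strand. *Hes5* (ENSMUSG00000048001) lies on chromosome 4 at 154960923 to 154962371, plus strand. *Hes7* (ENSMUSG00000023781) lies on chromosome 11 at 69120404 to 69124055, plus strand. *Ripply2* (ENSMUSG00000047897) lies on chromosome 9 at 87015537 to 87019917, plus strand.

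After the study's filters 10575 WT and 9623 null cells were kept, 4781 to 5459 per library, with a median of 33391 to 38070 unique molecular identifiers (UMIs) per cell. *Grhl3* itself was counted 878 and 803 times in WT and 12 and 14 times in null libraries, which matched the genotype labels. The pools differed in more than genotype: female cells made up 63.8% of WT and 36.6% of null cells, and the summed level of 12 posterior *Hox* genes (*Hox10* to *Hox13* groups) was 111 against 24.1 CPM, the depth-scaled count defined below. Fits within each sex are given below, gene by gene for 3 classes only, and the part of the posterior *Hox* difference in the results was not tested. Cells were clustered with all 10 genes left out of the variable features and named from marker lists without them, so that no class is defined by the genes described. Levels are CPM, UMIs added up within a class and library and scaled to one fixed total (the usual per-million scale), and they are compared for 1 gene across classes and not between genes.

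The Delta ligands were highest in the pre-somitic mesoderm-like and somitic mesoderm-like classes. In WT cells *Dll1* reached 220 ± 4.71 CPM (SD, n = 2 libraries) in the pre-somitic mesoderm-like class, 177 ± 9.61 in the somitic mesoderm-like class, 113 ± 6.54 in the paraxial mesoderm-like class, 63.5 ± 0.437 in the notochord-like class and 39.9 ± 2.25 in the neuromesodermal progenitor (NMP)-like class. *Dll3*, which acts within the cell against Notch signaling, followed the same order with 264.5 ± 2.11, 157.9 ± 0.297, 119.8 ± 1.48, 63.5 ± 5.69 and 45.4 ± 1.36 CPM. Each of these steps was larger than the spread between the 2 libraries for both genes. Erythroid-like cells, which should lack both ligands, gave 8.77 ± 0.418 CPM for *Dll1* and 4.61 ± 2.24 for *Dll3*, the level that free RNA can leave. The somitic-like class held 42.9% of all WT *Dll1* UMIs and 38.2% of the *Dll3* UMIs.

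The class names need a qualification. The 960 WT cells of the pre-somitic-like class, 492 and 468 per library, had 3 counterparts among null cells, 98.2% of them were called female, and their posterior *Hox* sum was 549 CPM. The presomitic transcription factor gene *Tbx6* was at 119 CPM there and at 86.9 CPM in the somitic-like class, and *Msgn1* at 3.34 and 2.70 CPM, while both were lower in the paraxial-like class at 28.7 and 0.293 CPM. By these markers both the pre-somitic-like and the somitic-like class held unsegmented mesoderm, and the pre-somitic-like class gives WT values only. How many of the 5 WT embryos these nearly all female cells came from is not known. The somitic-like class was mixed as well. At a finer clustering resolution 1223 of its WT and 674 of its null cells stayed in a somitic mesoderm-like cluster. Another 730 WT and 505 null cells lay in a cluster named lateral plate mesoderm-like.

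*Lfng* codes for an enzyme that adds sugars to Notch and changes its response to ligands. Its WT level was 28.02 ± 0.669 CPM in the pre-somitic-like, 21.6 ± 0.114 in the paraxial-like and 13.9 ± 0.0109 in the somitic-like class. The receptors had a different order. *Notch1* was highest in the paraxial-like class at 182.9 ± 3.85 CPM, within the spread of the notochord-like class at 165.9 ± 14.1, followed by the endothelium-like class at 137 ± 1.63, the pre-somitic-like class at 113 ± 5.53 and the somitic-like class at 78.5 ± 0.0874. *Notch2* was also highest in the paraxial-like class, at 41.7 ± 0.902 CPM, apart from the notochord-like class at 23.7 ± 4.65. Both receptors were thus highest in the class of the paraxial lineage in which both ligands were lowest.

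*Nrarp*, a Notch target that limits the pathway, was at 224.4 ± 0.241 CPM in the pre-somitic-like class and outside it at 106 ± 17.3 in the notochord-like, 76.2 ± 0.835 in the somitic-like, 59.2 ± 1.14 in the paraxial-like and 57.6 ± 2.84 in the endothelium-like class, and the last overlapped with the paraxial-like class. *Hes7* was at 200.8 ± 1.56 CPM in the pre-somitic-like class. The next 3 classes for *Hes7* were the somitic-like class at 123.7 ± 4.94, the notochord-like class at 118 ± 23.8 and the NMP-like class at 104 ± 2.03, and these neighbours did not differ beyond their spread. *Hes5* stood apart from the clock genes: its highest WT level was 100.8 ± 1.35 CPM in the neuroepithelium-like class, which held 36.8% of its UMIs, against 38.1 ± 3.90 in the NMP-like and 28.6 ± 0.908 in the somitic-like class.

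*Mesp2* and *Ripply2* were concentrated in 1 class among the 15 with at least 20 WT cells in each library. The paraxial-like class held 89.4% of WT *Mesp2* UMIs and 89.0% of WT *Ripply2* UMIs, and 83.3% and 86.5% of the null ones. *Mesp2*, the transcription factor gene that sets the somite boundary, was at 41.9 and 23.1 CPM in the 2 WT libraries there, and at 0.875 and 0.421 CPM in the pre-somitic-like class, where 12 and 6 UMIs were counted. *Ripply2*, whose product represses at the boundary, was at 122.8 and 76.2 CPM in the paraxial-like class and at 1.60 and 3.23 CPM in the pre-somitic-like class. Of the 14 neighbouring pairs in the order of classes, 13 overlapped for *Mesp2* and 12 for *Ripply2*, and for both genes the step down from the paraxial-like class was larger than the spread.

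**Figure D1:**
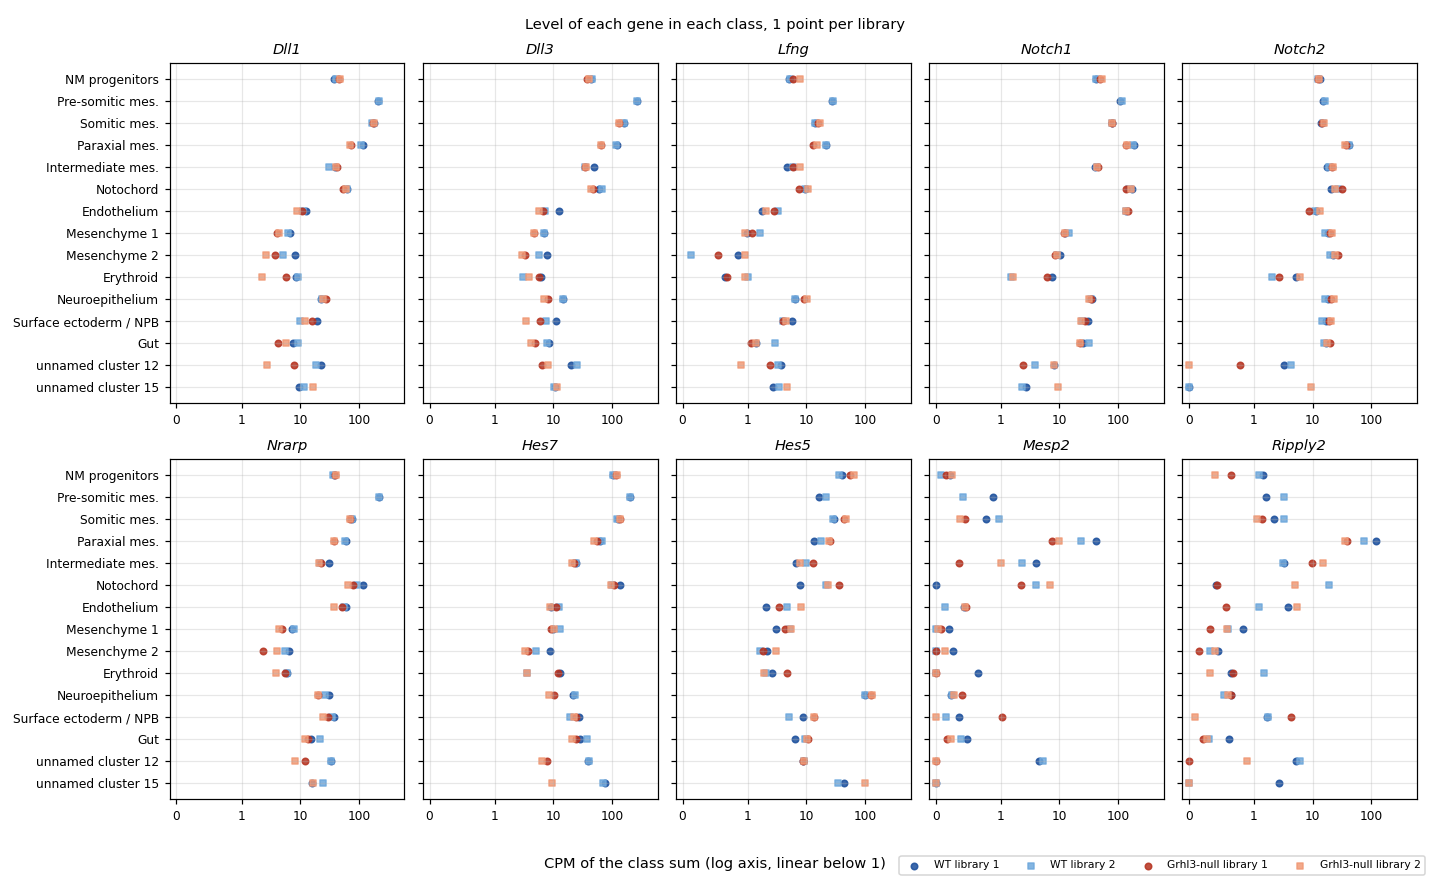
Level of each of the 10 genes (x axis, CPM on a log scale that is linear below 1) by cell class (y axis), with 1 point per library, WT in blue and null in red. *Dll1*, *Dll3*, *Lfng*, *Nrarp* and *Hes7* are highest in the WT pre-somitic-like class, *Notch1*, *Notch2*, *Mesp2* and *Ripply2* in the paraxial-like class and *Hes5* in the neuroepithelium-like class.

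Detection per cell gave the same picture of a broadly and a narrowly used set. With each cell thinned to 7500 UMIs, *Hes7* was seen in 52.7% of somitic-like cells of WT library 1 (95% Clopper-Pearson interval 49.6 to 55.9) and in 48.8%, 56.2% and 54.3% of those in WT library 2 and the null libraries. Without thinning the first of these was 85.5%. In erythroid-like cells, which should lack *Hes7*, the thinned shares were 4.41%, 0%, 5% and 1.49%. *Mesp2* was seen in 12.6% (9.95 to 15.6) and 9.04% of WT paraxial-like cells and in 3.77% and 3.59% of null ones. No erythroid-like cell held a *Mesp2* UMI after thinning, which allows a share of up to 4.41% in WT library 1. *Ripply2* was seen in 21.6% and 18.7% of WT and in 10.96% and 9.40% of null paraxial-like cells. Intervals and limits cover counting error only. Median depths were 32588 UMIs in somitic-like, 37650 in paraxial-like and 40083 in erythroid-like cells of WT library 1.

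Few cells carried much of the boundary signal. Of all *Mesp2* UMIs, the 10 highest cells held 30.5% and 41.8% in the WT libraries and 50.7% and 53.4% in the null libraries. A single cell held up to 55 *Mesp2* UMIs and up to 117 *Ripply2* UMIs. For *Hes7* the 10 highest cells held 2.54% to 3.22%, so its level was spread over many cells.

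Cells with *Mesp2* often held *Ripply2*. In the WT libraries 102 of 194 and 76 of 138 cells with a *Mesp2* UMI also had a *Ripply2* UMI (52.6% and 55.1%), against 5.19% and 4.96% of the other cells. In the null libraries these were 45 of 102 and 47 of 101 cells (44.1% and 46.5%), against 3.99% and 3.63%. The cells with *Mesp2* were deeper, with a median of 44031.5 to 60819 UMIs against 33186 to 37877 in the rest, so the shares are descriptions.

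To place the genes along the paraxial lineage, cells of the pre-somitic-like, somitic-like and paraxial-like classes were scored by 12 posterior genes such as *T* and *Fgf8* minus 11 anterior genes such as *Meox1* and *Tcf15*, none of them among the 10, and divided into 10 bins of equal size. Bin 1 was the most posterior. The bins come from a score of the same cells and carry no test. *Hes7* was highest at the posterior end with a WT mean of 189.9 CPM in bin 1, stood at 160 CPM in bin 6 and ended at 17.6 CPM in bin 10. Its posterior maximum rested on the pre-somitic-like cells. Without them the WT libraries were at 126.1 and 129.3 CPM in bin 1 and highest in bin 6, at 171.9 and 151.1 CPM. *Dll1* had 2 high stretches in WT, 232.5 CPM in bin 1 and 221.9 CPM in bin 7, with 119 CPM between them in bin 4 and 62.9 CPM in bin 10. Without the pre-somitic-like cells *Dll1* stayed highest in bin 1, at 248.8 and 272.7 CPM. *Dll3* was at 171 CPM in bin 1, 221 CPM in bin 7 and 69.0 CPM in bin 10, and *Nrarp* was at 126, 129 and 41.7 CPM in bins 1, 6 and 10.

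Most of the remaining genes had their highest WT level in the anterior bins. *Lfng* was at 16.4 CPM in bin 1, 27.5 in bin 6 and 28.02 in bin 9. *Notch1* went from 73.8 CPM in bin 1 to 242 in bin 9, and *Notch2* from 12.1 to 53.95 CPM. Both receptors were therefore highest in cells near the anterior end of the score. *Hes5* had no such trend, with 33.0, 14.8, 38.6 and 6.21 CPM in bins 1, 3, 7 and 10. *Mesp2* was at most 0.492 CPM in bins 1 to 5 of WT and then 3.82, 8.19, 23.5, 33.4 and 57.5 CPM in bins 6 to 10. *Ripply2* was highest 1 bin earlier, at 149.5 CPM in bin 9 and 82.3 CPM in bin 10. The WT maximum of *Mesp2* fell in bin 10 and that of *Ripply2* in bin 9, and neighbouring bins of *Mesp2* differed little beside their libraries (44.6 and 22.2 CPM in bin 9, 63.3 and 51.7 in bin 10). The peak bin is not firm: with finer clusters as the classes, 6 of the 10 genes kept their WT peak within 1 bin.

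Null cells were lower in every bin for *Dll3* and *Nrarp*. Both null libraries lay below both WT libraries in 10 of 10 bins for these 2 genes, in 9 of 10 for *Hes7*, 7 for *Lfng* and 6 each for *Dll1*, *Notch1* and *Mesp2*. For *Dll3* the null mean was 153, 82.4 and 33.5 CPM in bins 1, 7 and 10. For *Nrarp* it was 90.8, 63.5 and 33.7 CPM in bins 1, 6 and 10. *Hes5* went the other way, with both null libraries above both WT libraries in 8 of 10 bins and below in 0; its mean in bin 3 was 14.8 CPM in WT and 44.6 CPM in null cells. *Notch2* was above in 5 bins and below in 1. The same counts were not made for all genes, so no background share stands beside them.

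The WT-only pre-somitic-like cells fell in bins 1 to 9 and contributed to these counts. Without them *Dll3* was lower in null cells in 9 bins, *Nrarp* in 6 with 1 higher, *Hes7* in 6 with 3 higher, *Lfng* in 5 with 3 higher, and *Hes5* was higher in 8. In female cells alone *Dll3* was lower in 6 bins and *Nrarp* in 9, while *Hes5* was higher in 6 and lower in 2. *Lfng* in those cells was lower in 3 and higher in 5. In male cells alone *Dll3* was lower in 7 and *Nrarp* in 8, while *Hes5* was higher in 1 bin and lower in 1. In bins 7 to 10 females made up 62.7% to 84.5% of WT cells and 6.32% to 18.5% of null cells; in bins 1 to 5 they made up 60.1% to 70.1% and 46.6% to 57.3%.

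**Figure D2:**
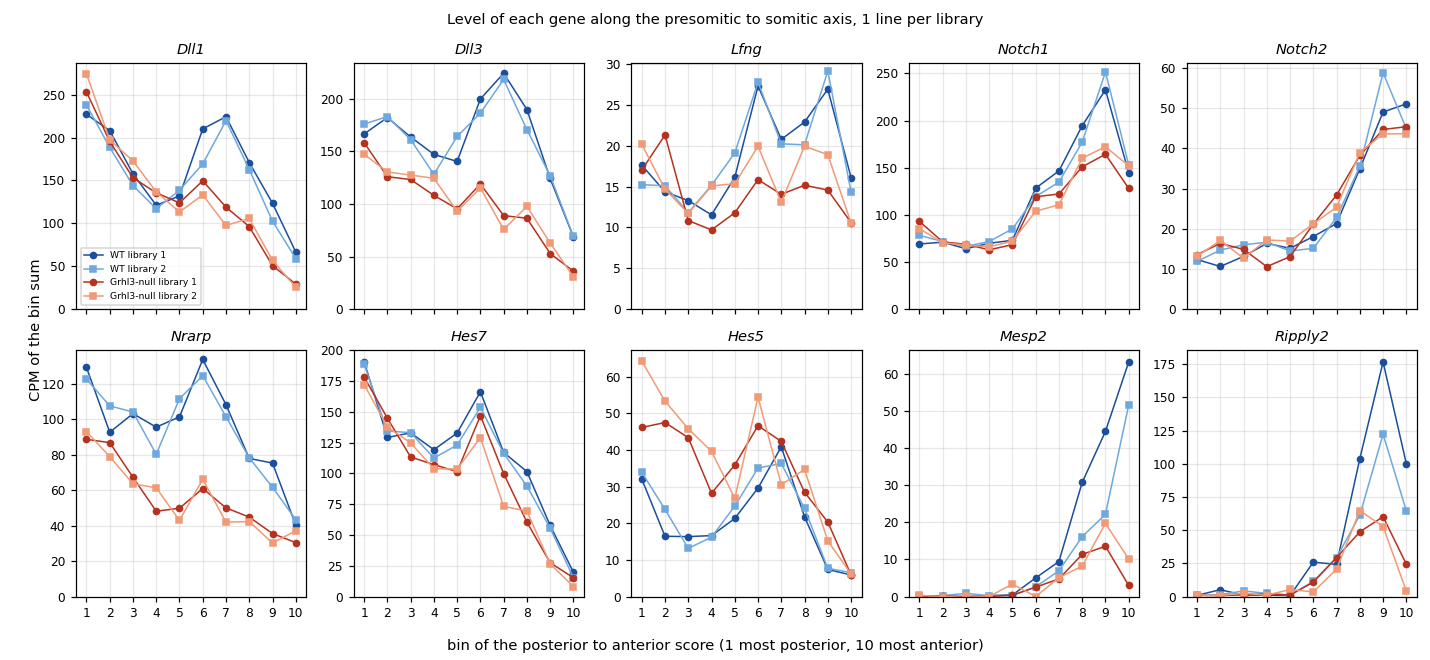
Level of the 10 genes (y axis, CPM) along 10 bins of paraxial lineage cells (x axis), from posterior (bin 1) to anterior (bin 10), with 1 line per library, WT in blue and null in red. *Mesp2* and *Ripply2* are high in the anterior bins, and the null lines of *Dll3* and *Nrarp* lie below the WT lines in all 10 bins.

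Summed over all cells, every one of the 10 genes differed between genotypes, 8 lower and 2 higher in null cells, where 35.5% of all genes tested passed (edgeR quasi-likelihood test, Benjamini-Hochberg adjusted p under 0.05). *Dll3* was at 70.6 and 73.0 CPM in the WT libraries and 36.2 and 35.7 in the null ones (log2 fold change -1.03, SE 0.02, edgeR adjusted p = 4.6e-07). *Dll1* was at 71.8 and 71.4 against 47.5 and 46.1 CPM (-0.64, SE 0.02, edgeR adjusted p = 4.55e-06). The groups did not overlap for either ligand.

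Among the targets, *Nrarp* was at 51.6 and 52.1 CPM in WT and 30.1 and 28.5 CPM in null libraries (-0.85, SE 0.03, edgeR adjusted p = 3.97e-06). *Hes7* was at 68.6 and 69.5 against 51.2 and 47.8 CPM (-0.51, edgeR adjusted p = 6.03e-05). *Hes5* rose, from 25.8 and 25.9 to 34.9 and 37.8 CPM (0.46, edgeR adjusted p = 8.47e-05). Of these 3 targets, 2 fell and 1 rose. *Mesp2* fell from 5.69 and 3.16 to 1.57 and 1.93 CPM (-1.37, SE 0.26, edgeR adjusted p = 0.00558), and *Ripply2* from 16.5 and 10.7 to 7.56 and 7.16 CPM (-0.92, SE 0.18, edgeR adjusted p = 0.00603). The WT libraries of these boundary genes differed more from each other than the null libraries did.

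The remaining changes were smaller. *Lfng* fell by 0.36 (SE 0.06, edgeR adjusted p = 0.00278) and *Notch1* by 0.21 (edgeR adjusted p = 0.000232) on the log2 scale, and *Notch2* rose by 0.16 (edgeR adjusted p = 0.00523). In a sum over all cells, fewer cells of a type and less RNA per cell cannot be told apart. With the pre-somitic-like cells left out, a comparison chosen after seeing the data, 9 of the 10 passed, the log2 fold change of *Dll3* was -0.74, that of *Nrarp* -0.49 and that of *Dll1* -0.43, and *Lfng* no longer passed (-0.15, edgeR adjusted p = 0.0923).

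By class, 54 of the 112 pairs of a tested gene and a class passed. The share of all genes tested that passed ran from 0.443% in the erythroid-like to 23.7% in the paraxial-like class. The largest share was in the paraxial-like class, where all 10 genes passed, 9 lower and 1 higher in null cells, against 23.7% of all genes tested there. *Dll3* was at 120.8 and 118.7 CPM in WT and 63.9 and 65.9 in null libraries (-0.91, SE 0.04, edgeR adjusted p = 3.8e-10). *Dll1* was at 118 and 108.7 against 73.7 and 71.2 CPM (-0.67, SE 0.04, edgeR adjusted p = 6.16e-08). *Nrarp* was at 60.1 and 58.4 against 38.4 and 37.1 CPM (-0.67, SE 0.04, edgeR adjusted p = 3.39e-08). For none of the 10 genes did the 2 genotypes' libraries overlap in this class. How many of all genes were separated in the same way was not counted, so this separation describes the 10 genes only.

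The boundary genes had the largest folds of the 10 in this class. *Mesp2* was at 41.9 and 23.1 CPM in WT and 7.38 and 9.73 in null libraries (-1.96, SE 0.20, edgeR adjusted p = 8.77e-06), and *Ripply2* at 122.8 and 76.2 against 38.8 and 35.7 CPM (-1.45, SE 0.14, edgeR adjusted p = 5.59e-06). *Lfng* fell from 21.5 and 21.7 to 12.9 and 15.4 CPM (-0.64, SE 0.08, edgeR adjusted p = 2.94e-05). *Notch1* fell from 185.7 and 180.2 to 138.5 and 141.6 CPM (-0.41, SE 0.04, edgeR adjusted p = 1.37e-06). *Hes7* (-0.37, edgeR adjusted p = 0.000151) and *Notch2* (-0.20, edgeR adjusted p = 0.0037) fell less. *Hes5* was the exception: it rose from 13.4 and 17.5 to 25.1 and 23.9 CPM (0.64, SE 0.09, edgeR adjusted p = 8.69e-05). Females made up 70.9% of WT and 11.04% of null cells of this class, and its posterior *Hox* sum was 12.6 CPM in WT and 2.56 in null cells.

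The paraxial-like class mixed cells at different steps, and its makeup differed between genotypes. At a finer resolution, taken one by one after seeing the data, 394 of its WT but 181 of its null cells lay in cluster 11, led by *Pcdh8*, *Mesp1*, *Fgf18* and *Cer1*, and 636 WT and 987 null cells in cluster 3. Within cluster 11 the 10 genes gave 5 lower and 1 higher in null cells against 2.69% of all genes tested. *Mesp2* was at 88.9 and 50.0 CPM in WT and 33.4 and 49.6 in null libraries, which nearly touch (-0.76, SE 0.20, edgeR adjusted p = 0.0485). *Ripply2*, at 292 and 170 against 210 and 185 CPM, overlapped between genotypes (-0.26, edgeR adjusted p = 0.434), as did *Lfng* (0.03, edgeR adjusted p = 0.905). *Notch1* was at 298 and 302 against 335 and 315 CPM and did not pass (0.10, edgeR adjusted p = 0.325). The folds of these 4 genes were thus nearer to 0 inside cluster 11 than in the whole class.

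*Hes5* kept its rise in cluster 11, from 14.9 in both WT libraries to 31.8 and 39.2 CPM (1.24, SE 0.12, edgeR adjusted p = 7.9e-06). *Dll1* (-0.32), *Dll3* (-0.25), *Hes7* (-0.33) and *Nrarp* (-0.32) were lower, with edgeR adjusted p of 0.0202, 0.0275, 0.00621 and 0.0202. In cluster 3 the counts were again 5 lower and 1 higher, against 15.2% of all genes tested. There *Mesp2* was at 11.6 and 7.63 CPM in WT and 3.77 and 2.49 in null libraries (-1.63, SE 0.19, edgeR adjusted p = 2.36e-05), *Ripply2* fell by 0.70 on the log2 scale (edgeR adjusted p = 0.0229), and *Dll1*, *Hes7*, *Lfng* and *Notch1* did not pass.

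In the somitic-like class 7 of 10 genes passed, 3 higher and 4 lower in null cells, against 17.8% of all genes tested. *Hes5* rose from 29.3 and 27.98 to 43.5 and 48.2 CPM (0.67, SE 0.05, edgeR adjusted p = 1.97e-07). *Dll3* fell from 158.1 and 157.7 to 131.3 and 133.3 CPM (-0.26, SE 0.03, edgeR adjusted p = 4.94e-05). *Dll1* at 183.9 and 170.3 against 177.4 and 181.9 CPM overlapped between genotypes (0.01, edgeR adjusted p = 0.893). With the sexes together, the decrease of *Dll1* seen in the paraxial-like class was thus not detected here. By sex, *Dll1* was lower in null males (-0.23, edgeR adjusted p = 0.0023) and higher in null females (0.23, edgeR adjusted p = 0.00132).

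The other calls of the somitic-like class were weak. *Ripply2* was at 2.16 and 3.26 against 1.35 and 1.14 CPM (-1.13, SE 0.24, edgeR adjusted p = 0.00381), and no longer passed without WT library 2 (-0.80). *Mesp2* rested on 68 UMIs in WT and 21 in null cells (-1.07, edgeR adjusted p = 0.0317). *Hes7* (0.13, edgeR adjusted p = 0.0249), *Lfng* (0.21, edgeR adjusted p = 0.041) and *Nrarp* (-0.12, edgeR adjusted p = 0.0322) passed narrowly. DESeq2 did not call *Hes7*, *Lfng*, *Mesp2* or *Nrarp* in this class, and *Lfng*, *Mesp2* and *Nrarp* did not pass with the top 5% of doublet scores removed. Leaving out any single library ended the calls of *Mesp2* and *Nrarp*, leaving out any but null library 1 ended that of *Lfng*, and leaving out WT library 2 or null library 1 ended that of *Hes7*. Females made up 53.5% of WT and 51.8% of null cells, and the posterior *Hox* sum was 25.1 against 12.97 CPM.

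In the NMP-like class, which holds the bipotent cells that feed both spinal cord and paraxial mesoderm, 6 of 9 tested genes passed, 4 higher and 2 lower in null cells, against 18.6% of all genes tested. *Hes5* rose from 40.9 and 35.4 to 56.0 and 65.5 CPM (0.65, edgeR adjusted p = 5.58e-05), *Notch1* from 41.3 and 42.2 to 49.3 and 52.5 CPM (0.27, edgeR adjusted p = 0.000464), *Hes7* from 105.8 and 102.9 to 118.7 and 123.6 CPM (0.20, edgeR adjusted p = 0.00164) and *Dll1* from 38.3 and 41.5 to 46.2 and 48.6 CPM (0.23, edgeR adjusted p = 0.00261). *Dll3* fell from 44.4 and 46.3 to 37.5 and 40.6 CPM (-0.24, edgeR adjusted p = 0.00212). *Ripply2* fell by 1.32 on the log2 scale at levels of at most 1.44 CPM (edgeR adjusted p = 0.00748). DESeq2 did not call *Dll1*, *Dll3* or *Ripply2*, and *Ripply2* no longer passed without WT library 1. *Mesp2* was too low to be tested here. The posterior *Hox* sum was 17.2 CPM in WT and 3.43 in null cells, and at the finer resolution 480 WT and 0 null cells of this class formed a cluster of their own.

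At that resolution, taken after seeing the data, 1081 WT and 1322 null cells of this class lay in cluster 0. There 3 of 9 genes passed, 1 higher and 2 lower, against 7.25% of all genes tested. *Hes5* was higher (0.31, edgeR adjusted p = 0.0111), and *Dll3* (-0.24, edgeR adjusted p = 0.0102) and *Nrarp* (-0.28, edgeR adjusted p = 0.00215) were lower. *Dll1* (-0.05, edgeR adjusted p = 0.593), *Notch1* (-0.0048, edgeR adjusted p = 0.961) and *Hes7* (0.07, edgeR adjusted p = 0.296) did not pass. The higher *Dll1*, *Notch1* and *Hes7* of the whole NMP-like class were thus not detected in the cluster that both genotypes shared.

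In the neuroepithelium-like class 6 of 9 tested genes passed, 3 higher and 3 lower, against 21.9% of all genes tested. *Hes7* fell from 21.8 and 23.2 to 10.4 and 8.52 CPM (-1.28, SE 0.09, edgeR adjusted p = 1.54e-08) and *Dll3* from 14.9 and 14.8 to 8.18 and 7.04 CPM (-0.99, SE 0.10, edgeR adjusted p = 1.19e-06). *Nrarp* fell by 0.51 on the log2 scale (edgeR adjusted p = 5.79e-05). *Hes5* rose from 101.7 and 99.8 to 125.3 and 132.8 CPM (0.33, edgeR adjusted p = 1.21e-05), and *Lfng* (0.54, edgeR adjusted p = 0.00189) and *Notch2* (0.33, edgeR adjusted p = 0.00709) rose too. Its cells were 81.3% female in WT and 13.8% in null, and its posterior *Hox* sum was 165 against 1.06 CPM. Male cells gave 4 of 8 genes, 2 higher and 2 lower (2311 of 11866 of all genes). Female cells gave 4 of 8, all lower (3386 of 11711), so no rise was called in them.

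The neuroepithelium-like class also differed in makeup between genotypes. At the finer resolution 386 of its WT but 2 of its null cells lay in cluster 12, 499 and 932 in cluster 4, and 90 and 330 in cluster 15. In cluster 4 the test called 1 of 8 genes, against 4.85% of all genes, with *Nrarp* lower (-0.36, edgeR adjusted p = 0.0171). In cluster 15 it called 1 of 8, against 2.51%, with *Dll3* lower (-1.20, edgeR adjusted p = 0.0261). *Hes5* did not pass in either (-0.04, edgeR adjusted p = 0.769, and 0.31, edgeR adjusted p = 0.54), and neither did *Hes7* (-0.42, edgeR adjusted p = 0.0655, and -0.59, edgeR adjusted p = 0.201). The *Hes5* rise of the whole class was therefore not detected inside these clusters.

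Outside the paraxial lineage and neural tissue the called genes were mostly lower in null cells in the fits that took the sexes together. In the gut-like class 5 of 8 tested genes passed, all lower, against 19.2% of all genes tested, with log2 fold changes of -0.92 for *Dll3*, -0.76 for *Dll1*, -0.57 each for *Hes7* and *Nrarp*, and -0.38 for *Notch1*. The mesenchyme 2-like class had 5 of 8, against 19.8%, of which *Notch2* was higher (0.29) and *Dll3* (-1.12), *Dll1* (-1.07), *Hes7* (-0.99) and *Nrarp* (-0.90) were lower. The mesenchyme 1-like class had 4 of 9, against 6.83%, with *Nrarp* at -0.68, *Dll3* at -0.58, *Dll1* at -0.57 and *Notch2* at 0.26. By sex, gut-like males gave 3 of 7, all lower (1691 of 11965 of all genes), and females 0 of 8 (910 of 11897). Mesenchyme 2-like males gave 1 of 7, lower (1460 of 11041), and females 1 of 7, higher (2551 of 11475). Mesenchyme 1-like males gave 3 of 8, all lower (1097 of 11769), and females 1 of 9, lower (1910 of 12157). Females made up 57.7% of WT and 32.1% of null gut-like cells, 81.0% and 25.2% of mesenchyme 2-like cells and 43.3% and 56.5% of mesenchyme 1-like cells. The posterior *Hox* sums were 200.4 against 38.6 CPM, 274.6 against 19.5 and 131.6 against 89.4 in the same order.

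Many of these levels were no higher than free RNA can leave. WT *Dll1* was at 8.22, 6.57 and 6.33 CPM in the gut-like, mesenchyme 2-like and mesenchyme 1-like classes, against 8.77 in erythroid-like cells. WT *Nrarp* was at 5.95 CPM in both the mesenchyme 2-like and the erythroid-like class, and WT *Hes7* at 6.86 CPM in the former and 8.28 in the latter. Differences at this level are not read as changes in expression in these classes. The mesenchyme 2-like calls also rested on both null libraries. Without null library 1 the edgeR test called 0 of the 8 genes there and 6 of all genes, and without null library 2 it called 0 and 12, against 2451 of all genes with both. At an unadjusted p under 0.05 these fits gave 2 and 3 of the 8 genes.

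The class of surface ectoderm and neural plate border cells, where *Grhl3* is known to act, had 3 of 9, against 13.5%: *Hes5* was higher (0.91), and *Dll3* (-1.005) and *Nrarp* (-0.47) were lower. Its cells were 67.1% female in WT and 42.8% in null, and its posterior *Hox* sum was 65.0 against 27.7 CPM. Male cells gave 1 of 8 genes, lower (1387 of 11014 of all genes), and female cells 2 of 8, both higher (1623 of 11627). *Dll3* was at 9.39 ± 2.62 CPM in WT and 4.74 ± 1.81 in null cells there, beside 4.61 ± 2.24 and 4.81 ± 1.37 in erythroid-like cells. The notochord-like class had 2 of 9, against 3.52%, with *Dll3* at -0.47 and *Nrarp* at -0.51. In the intermediate mesoderm-like class 2 of 10 passed, against 2.66%: *Mesp2* was lower (-2.19, 32 UMIs in WT and 7 in null cells) and *Ripply2* was higher (1.97, edgeR adjusted p = 0.000507, from 17 and 15 UMIs in WT and 54 and 75 in null libraries). Females made up 69.0% of WT and 21.6% of null cells of this class, and its posterior *Hox* sum was 12.7 against 1.99 CPM. Male cells gave 0 of 7 genes (321 of 9074 of all genes) and female cells 1 of 9, higher (842 of 9485). *Ripply2* thus passed as higher in 1 class and lower in 3. Of these 3, the NMP-like class was at 1.32 ± 0.164 CPM in WT, beside 1.08 ± 0.607 in WT erythroid-like cells. A cluster left unnamed, of low depth with medians of 15857 to 16405 UMIs per cell, had 4 of 6, all lower, against 4.39%. The count of all genes called in it went from 357 to 82 without null library 1 and to 188 without null library 2, and 3 of the 6 genes passed in either case.

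In the endothelium-like class 0 of 9 tested genes passed in edgeR or DESeq2, where 0.539% of all genes did in edgeR. By sex, male cells gave 0 of 5 (18 of 9842 of all genes) and female cells 1 of 7, lower (318 of 10476). *Notch1*, the main vascular Notch receptor, was at 138.3 and 136 CPM in WT and 145.5 and 134 in null libraries. In the erythroid-like class 0 of 6 passed in either tool, where 0.443% of all genes did in edgeR. At an unadjusted p under 0.05, *Dll3* and *Nrarp* were lower in the first of these classes and *Dll1* in the second, 2 and 1 genes.

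Across classes the genes fell into patterns of sign. *Dll3* had a log2 fold change below 0 in all 13 tested classes, from -1.60 to -0.09, and passed in 10. *Nrarp* was below 0 in 12 of 13 and passed as lower in 9. *Hes5* was above 0 in all 12 tested classes, from 0.03 to 0.92, and passed in 5. *Dll1* passed as lower in 5 and higher in 1, *Hes7* as lower in 5 and higher in 2, *Lfng* as lower in 1 and higher in 2, *Notch1* as lower in 2 and higher in 1, and *Notch2* as lower in 1 and higher in 3. The classes share embryos and droplets, so these are not 13 independent comparisons. The counts include the calls at the erythroid-like level and the mesenchyme 2-like calls described above. Beside them, 0.443% to 23.7% of all genes tested passed, depending on the class.

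**Figure D3:**
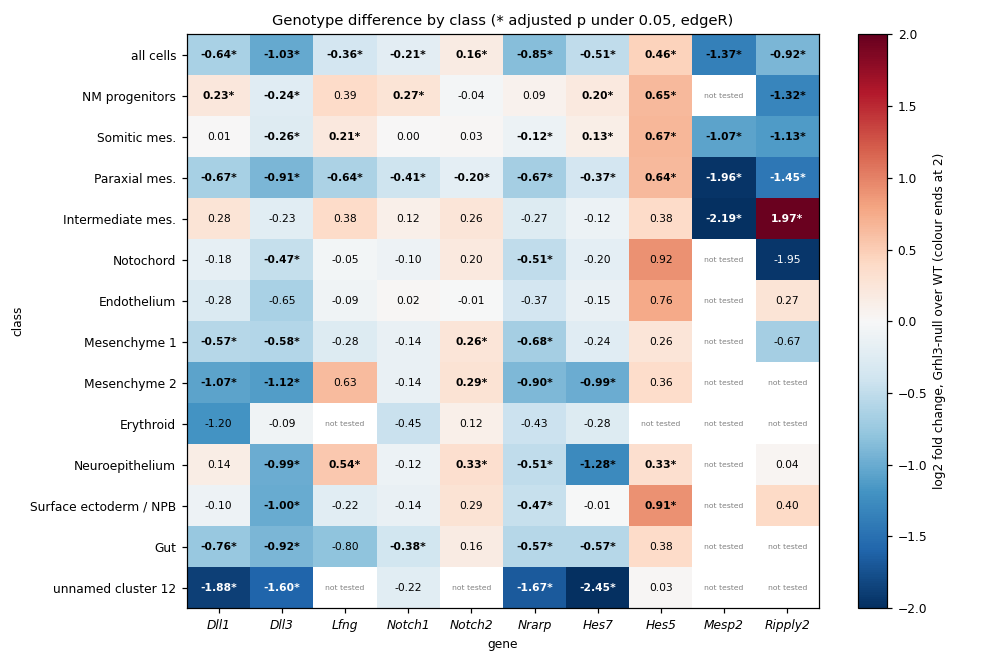
Log2 fold change of null over WT for each of the 10 genes (columns) in all cells and in each tested class (rows), in red where higher and blue where lower in null cells; asterisks mark an adjusted p under 0.05. *Dll3* is below 0 in all 13 classes and *Hes5* above 0 in all 12 in which it was tested.

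Splitting cells by sex, called from *Xist* and Y-linked genes, split the embryos of each pool, and the size and often the direction of the genotype difference went with it. In male NMP-like cells 6 of 9 tested genes passed, all lower in null cells, against 4.77% of all genes. In female NMP-like cells 7 of 9 passed, 6 of them higher, against 22.6%. *Dll1* in males was at 60.4 and 69.0 CPM in WT and 35.9 and 28.5 in null libraries (-0.996, SE 0.09, edgeR adjusted p = 4.41e-08). In females it was at 25.9 and 25.0 against 47.2 and 60.8 CPM (1.04, SE 0.09, edgeR adjusted p = 4.49e-06). The WT females were the lowest of the 4 groups for *Dll1*, and null males came next.

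*Hes5* in the same class was at 62.9 and 54.3 CPM in WT males against 46.0 and 44.9 in null males (-0.36, edgeR adjusted p = 0.00352), and at 29.7 and 26.1 in WT females against 65.5 and 84.1 in null females (1.38, edgeR adjusted p = 5.75e-07). *Nrarp* went from 47.3 and 46.5 to 27.0 in both null libraries in males (-0.79) and from 32.9 and 29.5 to 46.7 and 51.4 CPM in females (0.62). A test of the sex by genotype interaction called 7 of the 9 genes, against 12.1% of all genes tested, each with a more negative difference in males. *Dll3* was lower in male null cells (-0.50, edgeR adjusted p = 8.71e-05) and did not pass in females (-0.08, edgeR adjusted p = 0.478).

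In the paraxial-like class male cells gave 9 of 10 genes, all lower, against 10.9% of all genes tested, and female cells 6 of 10, 4 higher and 2 lower, against 12.3%. *Ripply2* was at 210 and 142 CPM in WT males and 22.4 and 18.9 in null males (-3.11, SE 0.15, edgeR adjusted p = 6.21e-09), but at 128 and 75.7 against 127 and 122 CPM in females, where the genotypes overlapped (0.29, edgeR adjusted p = 0.205). *Dll3* was at 182 and 177 against 48.6 and 48.8 CPM in males (-1.90) and at 123 and 119 against 116 and 137 CPM in females (0.07, edgeR adjusted p = 0.603). The *Dll3* and *Ripply2* differences of this class were therefore found in male cells and not detected in female cells.

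*Mesp2* was lower in null cells of both sexes, at 75.8 and 23.7 against 5.44 and 12.9 CPM in males (-2.52, SE 0.40, edgeR adjusted p = 0.000871) and at 44.8 and 29.2 against 5.56 and 15.1 CPM in females (-1.88, SE 0.26, edgeR adjusted p = 1.13e-05). *Dll1* was also lower in both (-1.61 and -0.40). *Lfng* and *Notch1* passed in opposite directions, at -1.57 and -1.01 in males and 0.55 and 0.37 in females. The interaction passed for 8 of 10 genes, against 14.8% of all genes tested, *Mesp2* and *Hes5* being the exceptions. Only 119 WT male and 129 null female cells stood behind these values, against 754 WT female and 619 null male cells.

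In the somitic-like class, with a like share of females in both genotypes, male cells gave 4 of 9 genes, all lower, against 6.42%, and female cells 5 of 10, 4 higher and 1 lower, against 20.2%. *Dll3* was lower in both sexes (-0.36 and -0.13). *Hes5* was near 0 in males (-0.01) and higher in female null cells (0.99, SE 0.08, edgeR adjusted p = 3.45e-09), at 24.7 and 19.9 against 42.9 and 46.8 CPM. *Nrarp* was lower in males (-0.59) and higher in females (0.27). The interaction passed for 4 of 10 genes, against 10.3%. Sex here marks different embryos of the 2 pools, and an effect of sex and of embryo cannot be told apart.

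**Figure D4:**
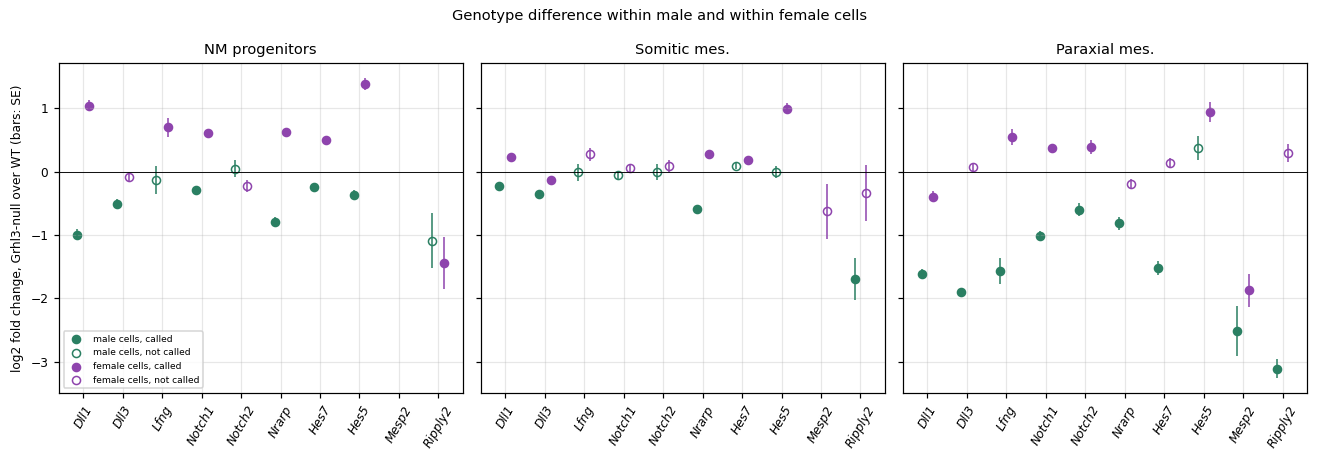
Log2 fold change of null over WT (y axis) in male and in female cells for the 10 genes (x axis) in the NMP-like, somitic-like and paraxial-like classes; bars are SE and filled points passed the test. Most male values lie below the female values of the same gene, and *Mesp2* in the paraxial-like class is below 0 in both sexes.

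The genes were also compared cell by cell over the pre-somitic-like and somitic-like classes, called presomitic cells here. These classes held 1474 and 1450 WT and 603 and 582 null cells. Among them were the 730 WT and 505 null cells that the finer resolution placed in a lateral plate mesoderm-like cluster. Each cell was thinned to 7500 UMIs, correlations were taken within a library, and they are descriptions over cells that share a library, a depth range and a mixture of classes. *Dll1* and *Dll3* gave the highest r of any pair, with a mean of 0.334 over the 4 libraries (0.307, 0.329, 0.355 and 0.344). *Hes7* and *Dll1* gave 0.237, *Hes7* and *Dll3* 0.227 and *Hes7* and *Nrarp* 0.221 (0.283, 0.214, 0.172 and 0.215). *Dll1* gave 0.251 with *Notch1* and *Dll3* gave 0.247. *Mesp2* and *Ripply2* gave 0.132, above 0 in 3 of 4 libraries. Without thinning the first pair gave 0.635 and *Hes7* with *Nrarp* 0.425.

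**Figure D5:**
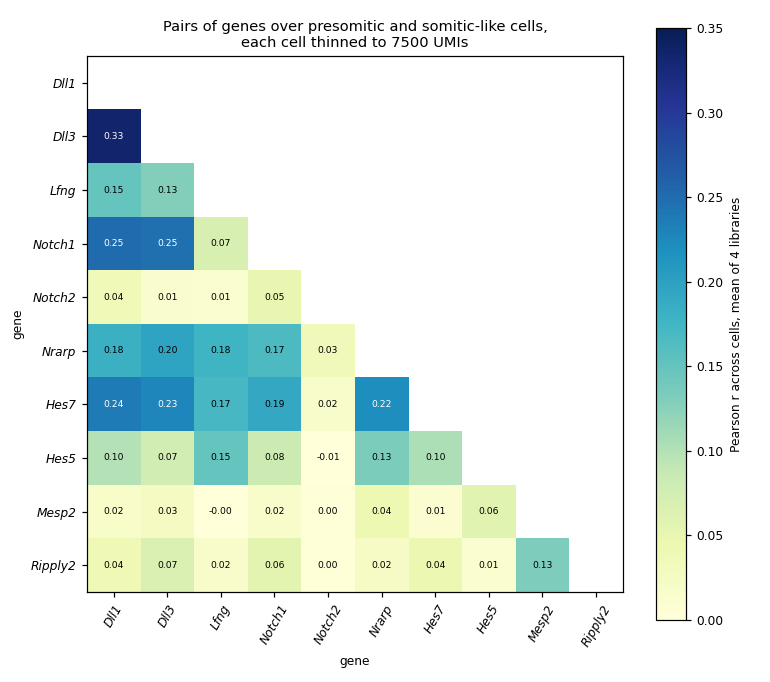
Mean Pearson r over the 4 libraries between pairs of the 10 genes across presomitic cells thinned to 7500 UMIs. *Dll1* with *Dll3* is highest at 0.334, and pairs with *Notch2* lie near 0.

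Of the 11762 genes found in 3% or more of these cells, the 5 with the highest mean r to *Hes7* were *Rspo3* at 0.283, *Dll1* at 0.237, *Fgf8* at 0.234, *Dll3* at 0.227 and *Nrarp* at 0.221. The median over all genes was -0.0012 and the 95th percentile 0.0383. For *Mesp2* they were *Mesp1* at 0.181, *Kcnip2* at 0.138, *Tep1* at 0.136, 9530082P21Rik at 0.135 and *Ripply2* at 0.132, values that rest on few cells. They also rest on single libraries. In WT libraries 1 and 2 and null libraries 1 and 2, *Kcnip2* gave -0.0082, -0.0084, -0.0089 and 0.575. *Tep1* was below 0 in both WT libraries, and 9530082P21Rik in WT library 1 and null library 1. *Mesp1* and *Ripply2* were below 0 in null library 2 only. *Rspo3* codes for a secreted enhancer of Wnt signaling and *Fgf8* for a growth factor of the tail end, and *Mesp1* is the neighbouring paralogue of *Mesp2*. A snapshot of cells does not show the phase of the clock, and no cycle was inferred.

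Over the 15 classes, the 3 genes outside the list with the pattern most like each member were ranked by Pearson r of log2(CPM + 1) among 11359 genes. *Hes7* was most like *Rspo3* (0.933), *Ddit4* (0.933) and *Wnt3a* (0.899), *Dll3* most like *Tbx6* (0.927) and *Dll1* most like *Trim9* (0.915). *Tbx6* was also among the 3 for *Dll1* (0.907) and *Lfng* (0.843). *Mesp2* was most like *Dmrt2* (0.970), *Meox2* (0.968) and *Uncx* (0.968), and *Ripply2* most like 2610016A17Rik (0.932) and *Pax1* (0.920). *Notch2* was most like *Manea* (0.967), *Nrarp* most like *Lrrc57* (0.897) and *Hes5* most like *Phyhipl* (0.936). With 15 points from shared libraries these are descriptions.

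The other Notch pathway genes passed about as often as all genes did. Of 38 that are not among the 10, 35 were tested in the paraxial-like class and 5 were higher and 3 lower in null cells, with a median log2 fold change of 0.05 beside 0.01 over all genes there, where 23.7% of all genes passed. In the somitic-like class 7 of 36 were higher and 1 lower, against 17.8% of all genes. In the NMP-like class 4 of 35 were higher and 3 lower, against 18.6%, and over all cells 8 of 38 higher and 8 lower, against 35.5%. *Hes1*, another repressor and Notch target, was higher in the NMP-like (0.45, edgeR adjusted p = 6.83e-06), somitic-like (0.65, edgeR adjusted p = 1.21e-07) and paraxial-like classes (0.35, edgeR adjusted p = 3.7e-05). *Mib1*, the ligase that lets ligands be internalised, was higher in the same 3 classes, at 0.14, 0.20 and 0.13. *Maml2*, a coactivator in the RBPJ complex, was lower in the paraxial-like class (-0.46, edgeR adjusted p = 0.000393), as was the target *Hey1* (-0.39, edgeR adjusted p = 0.000225). The receptor *Notch3* was higher in the NMP-like class (0.26, edgeR adjusted p = 0.00283).

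Of 8 other segmentation genes, 4 were lower and 1 higher in the paraxial-like class, where 23.7% of all genes passed: *Mesp1* (-1.88, edgeR adjusted p = 4.23e-07), the protocadherin gene *Pcdh8* (-0.97, edgeR adjusted p = 3.8e-10) and *Tbx6* (-0.53, edgeR adjusted p = 5.93e-06) were among the lower, and *Uncx*, a gene of the caudal somite part, was higher (0.32, edgeR adjusted p = 0.0485). In the somitic-like class, where 17.8% of all genes passed, 2 of 6 tested were higher and 2 lower, with *Mesp1* at -1.59 and *Pcdh8* at -1.26. Of 10 Wnt and Fgf genes of the clock, 3 were higher and 4 lower in the paraxial-like class, against the same 23.7%. The Wnt targets *Dkk1* (-0.82) and *Sp5* (-0.43) were lower and the Fgf feedback genes *Spry2* (0.35) and *Spry4* (0.27) higher in the somitic-like class. Unlike the 10, the genes of these lists were not left out of the clustering. *Tbx6*, *Pcdh8* and *Dkk1* were among the markers that named the classes.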

How the data were processed

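The deposited files hold counts of unique molecular identifiers (UMIs) per gene and cell, which the authors made with Cell Ranger (3.0.0 in the matrix headers) on the mm10 genome from 3′ droplet libraries. The 10 genes and the lists were chosen with earlier results of these data known. The study's filters were applied: a minimum of 3000 genes and 7500 UMIs per cell and a maximum of 7% mitochondrial UMIs. The libraries hold 209833527 to 226723903 kept UMIs. Cells were normalized with sctransform 0.4.2 and clustered in Seurat 5.3.0 (R 4.3.3) on 3000 variable features, 30 components, 20 neighbours and resolution 0.4. The 10 members and the 38 other Notch pathway genes made up 48 genes, and the 20 of them among these features were removed. The other segmentation genes and the Wnt and Fgf clock genes were not removed. Of 17 clusters, 15 were named, from markers the study had chosen on these cells: at least 3 markers among the 30 leading genes and 1.5 times as many as any other type. Automatic doublet calls marked under 0.5% of cells and were not used, and an alternative removed the top 5% of scores (scanpy 1.11.5).

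UMIs were summed per library and class, for classes with at least 20 cells in each library, and tested null against WT with edgeR 4.0.16 (quasi-likelihood test, TMM, filter on low counts, Benjamini-Hochberg adjustment over all genes tested, adjusted p under 0.05). Checks were made on simulated data. DESeq2 1.42.0 and limma 3.58.1 were used for alternatives and helper functions, and numpy 2.4.6, scipy 1.17.1, pandas 2.3.3, scikit-learn 1.9.0 and matplotlib 3.10.9 (python 3.11.15) for the rest. Levels are CPM with SD over 2 libraries. Shares carry 95% Clopper-Pearson intervals after thinning to 7500 UMIs, and a count of 0 allows up to 3 counts. Cells were called male with at least 2 Y-linked and at most 2 *Xist* UMIs, and female with at least 3 *Xist* and at most 1 Y-linked UMI; 12.6% to 16.3% had no call.

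The 2 libraries of a pool differed beyond sampling noise (chi-square over its degrees of freedom was 8.20 for WT and 14.4 for null) and were counted as 2. Pairs of libraries shared 7 to 16 cell barcodes. Named genes were the 10 members, up to 4 list genes per class with the largest fold among those called, the 3 genes most like each member across classes, and the 5 with the highest correlation to *Hes7* and to *Mesp2*; *Cer1* and the other leading genes of cluster 11, the marker genes *Tbx6* and *Msgn1* and single examples of the score's genes were named after their values were seen. The genes most like *Notch1* across classes are not reported here. Protein sequences were not used here.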

Additional observations from a re-analysis of the deposited data

Results flagged for a closer look

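The difference between male and female cells in the null over WT log2 fold change was tested by an interaction term in edgeR for the 3 classes of the NMP and paraxial lineage. It passed for 19 of 29 pairs of a gene and a class, and in all 19 the male value was the more negative; the background share of all genes is given with the counts above. Values are the male minus the female log2 fold change.

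In the NMP-like class the difference was -2.04 for *Dll1*, -1.75 for *Hes5*, -1.41 for *Nrarp*, -0.91 for *Notch1*, -0.85 for *Lfng*, -0.75 for *Hes7* and -0.43 for *Dll3*. *Notch2* (0.27) and *Ripply2* (0.41) did not pass.

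In the paraxial-like class it was -3.39 for *Ripply2*, -2.11 for *Lfng*, -1.95 for *Dll3*, -1.65 for *Hes7*, -1.37 for *Notch1*, -1.19 for *Dll1*, -0.96 for *Notch2* and -0.60 for *Nrarp*. *Mesp2* (-0.58) and *Hes5* (-0.55) did not pass.

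In the somitic-like class it was -1.001 for *Hes5*, -0.86 for *Nrarp*, -0.46 for *Dll1* and -0.23 for *Dll3*. *Hes7*, *Lfng*, *Notch1*, *Notch2*, *Mesp2* and *Ripply2* did not pass there. Cells of the 2 sexes come from different embryos of a pool, so sex and embryo cannot be told apart.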

How the results depend on the processing

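Calls by class numbered 54 and kept within 1.5 times that count with other size factors, no filter, doublets removed, a stricter mitochondrial limit or other clusters (46 to 56). They fell to 33 with DESeq2 and to 15 where a log2 fold change of at least 1 was also asked, which left 2 of 10 over all cells. They were 31 in male and 28 in female cells, where fewer classes and fewer pairs of a gene and a class were tested. Leaving out 1 library gave 45 to 49, and 10 over all cells. For the 38 other Notch genes 60 calls became 19 with DESeq2, 28 in male cells and 5 with the fold, and 37 to 45 without 1 library. With resolution 0.8, 6 of 10 genes kept their peak within 1 bin, and 8 to 10 without 1 library. The mean r of *Hes7* with *Nrarp*, 0.221, became 0.150 with the lists kept among the variable features, 0.151 at resolution 0.8, 0.425 without thinning, and 0.200 to 0.237 without 1 library. The causes were not tested beyond the smaller samples and stricter rules themselves.

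Of 516 values of 39 named fold changes under alternatives, 445 kept direction and call, 36 lost and 7 gained a call, and 28 changed sign. In male cells the sign changed in the NMP-like class for *Hes7* (-0.25), *Lfng* (-0.13), *Dll1* (-0.996), *Notch1* (-0.29), *Notch2* (0.045), *Nrarp* (-0.79) and *Hes5* (-0.36), and in the somitic-like class for *Lfng* (-0.010), *Dll1* (-0.23), *Notch1* (-0.055), *Notch2* (-0.0060) and *Hes5* (-0.0052). In female cells it changed for *Notch2* over all cells (-0.060), somitic-like *Nrarp* (0.27), and paraxial-like *Hes7* (0.14), *Lfng* (0.55), *Dll3* (0.070), *Notch1* (0.37), *Notch2* (0.39) and *Ripply2* (0.29). Uncalled values near 0 also changed sign without 1 library: NMP-like *Notch2* ranged from -0.093 to 0.011, and in the somitic-like class *Dll1* from -0.052 to 0.069, *Notch1* from -0.011 to 0.014 and *Notch2* from -0.036 to 0.092. Somitic-like *Notch1* was -0.0021 with no filter.

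With the replicate number as a block (replicate block), calls by class were 55, over all cells 10, and for the other Notch genes 76; NMP-like *Lfng* then passed (0.39, edgeR adjusted p = 0.00344). Libraries with the same number share only that number: their deviations correlated at 0.074 over 14481 genes. Depth limits *Mesp2* and *Ripply2* outside the paraxial-like class.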
